A study of Mus musculus with 6 samples.

Results

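Expression of 32 genes of the unfolded protein response was followed in 6 arrays of mouse macrophages, 3 from mice labelled Tet2-deficient and 3 from wild-type littermates. The genes were chosen by name, as sensors, transcription factors, chaperones and degradation genes of the endoplasmic reticulum (ER). All 32 had a feature of their own among the 25206 features of the arrays. Both groups were on the C57BL/6J background and consisted of thioglycollate-elicited peritoneal macrophages, cells drawn into the abdominal cavity by an irritant broth and collected on day 4. Every culture of both groups received 10 ng/mL lipopolysaccharide, a cell wall component of bacteria sensed by toll-like receptor 4, and 2 ng/mL interferon gamma for 10 h, so each value describes the stimulated state and none describes resting cells. The Tet2 allele is given as Tet2-/- without its construction, and the sources used here do not give the age of the mice. Tet2 encodes an enzyme that oxidises 5-methylcytosine in DNA.

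The ER folds secreted and membrane proteins. When unfolded protein accumulates there, 3 sensors in its membrane respond. PERK (gene Eif2ak3) phosphorylates the translation factor eIF2, which lowers general translation and favours that of the transcription factor ATF4. IRE1 (Ern1) splices the mRNA of Xbp1 to a form that encodes an active factor, and ATF6 (Atf6) is cut in the Golgi to release a factor of its own. ATF4 drives amino acid supply and the stress factor CHOP (Ddit3), ATF6 mainly ER chaperones, and XBP1 mainly co-chaperones, degradation and transport into the ER. Macrophages use IRE1 and XBP1 during toll-like receptor signalling, which is known to engage this arm without the full stress response. Branch lists below assign each gene to the arm it is best known for, and several genes answer to more than 1 arm.

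Values are log2 expression. A change is the Tet2-deficient mean less the wild-type mean, and its error is the standard error from limma fitted over all features (n = 3 arrays per group). This error is moderated: each gene's variance is drawn toward that of all features, so it is not the gene's own spread alone. Array medians were 3.54 to 3.66 for wild-type and 3.47 to 3.597 for Tet2-deficient arrays. The Tet2 feature did not separate the labels: it read 5.40, 5.07 and 5.10 in wild-type arrays and 5.55, 5.25 and 5.75 in arrays labelled Tet2-deficient (log2 change 0.32 ± 0.16, limma adjusted p = 0.365). A feature outside the deleted part would check nothing, and the sources used here do not place its probes, so "Tet2-deficient" stands for the label in every direction below. Macrophage markers were high in all arrays (mean log2 level of Adgre1, Cd68, Csf1r, Mertk, Fcgr1 and Itgam 9.74 to 9.77 in wild-type and 9.84 to 10.0 in Tet2-deficient arrays). Among them Itgam (CD11b) rose by 0.97 ± 0.14 (limma adjusted p = 0.0211), a call lost in 5 of 6 fits that leave out an array, all but that lacking wild-type replicate 1. Csf1r had a change of 0.58 (adjusted p = 0.0543) and Fcgr1 of -0.51. The part of these markers in the results below was not tested.

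The comparison asked which genes differ between the genotypes under the inflammatory stimulus. Chaperones and most other ATF6-branch genes had higher levels in the Tet2-deficient arrays, by 1.05- to 1.56-fold, together with all 3 sensors and, in the IRE1 branch, Xbp1, the co-chaperones Dnajb9 and Dnajc3 and the degradation genes Edem1 and Syvn1. The PERK-ATF4 branch had no common direction, and of both translocon genes Sec61b lay lower and Ssr1 had a change of -0.02. None of these differences passed for a gene taken alone: 0 of 32 genes reached an adjusted p of 0.05 in limma, where 0.952% of all features did (0.647% higher and 0.305% lower), the lowest values being 0.0735 (Manf) and 0.0783 (Eif2ak3). At an unadjusted p of 0.05, 16 genes lay on the higher side and 2 on the lower, where all features gave 7.63% and 8.37% (16% together) and those above the median level gave 13.4% and 10.6% (24% together). At an adjusted p of 0.25, 12 lay higher and 2 lower, against 5.95% and 6.05% of all features (12% together). Some calls depended on the fit. Manf passed once each array was set to a common median. With limma fitted only to features above the median level Manf and Eif2ak3 passed, where 4.18% of features were higher and 2.53% lower (6.71% together). With a trended and robust prior Manf, Calr and Hsp90b1 passed, where 1.97% were higher and 1.26% lower (3.23% together). With array weights 0 of 32 passed, where 1.26% were higher and 0.714% lower (1.98% together).

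Direction was uneven. The change was above 0 in 25 of the 32 genes, against 42.1% of all features (57.9% were below 0), and the median change was 0.28, against -0.04 over all features. All 32 genes had a mean level above the median feature, and over the 12603 features above that median 49.1% had a change above 0 and 50.9% below, with a median of -0.0054. In 17 genes every Tet2-deficient array lay above every wild-type array, against 9.74% of all features and 16.6% of those above the median level. In 2 genes, Ppp1r15a and Sec61b, every Tet2-deficient array lay below, against 12.2% and 14.5%. Both directions together made 22% of all features and 31.1% of those above the median level. The 95% interval of the change lay above 0 for 16 genes, below 0 for 2 and held 0 for 14. Since these are bulk cultures, fewer cells of a type and less RNA per cell cannot be told apart in any of these values.

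**Figure D1:**
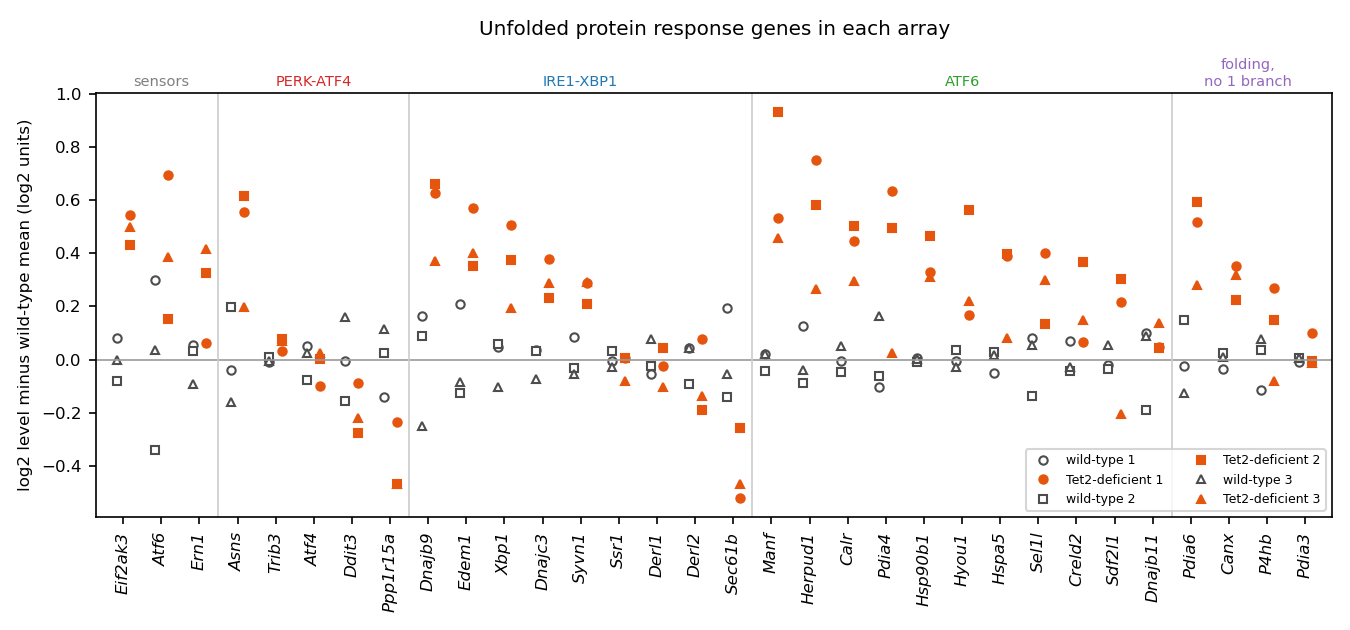
Level of each of the 32 genes in each array, as log2 level minus that gene's wild-type mean (vertical axis, log2 units), with genes on the horizontal axis grouped by branch. Open symbols are the 3 wild-type arrays and filled symbols the 3 Tet2-deficient arrays; in 17 genes all filled symbols lie above all open ones and in 2 genes, Ppp1r15a and Sec61b, all lie below.

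Among the sensors, Eif2ak3 was the most separated. Its log2 level was 3.97, 3.81 and 3.89 in the wild-type arrays and 4.43, 4.32 and 4.39 in the Tet2-deficient arrays. The groups were 0.35 apart at their nearest arrays, and the change was 0.49 ± 0.11 (1.40-fold, limma adjusted p = 0.0783). Ern1 read 6.83, 6.81 and 6.69 in wild-type and 6.84, 7.10 and 7.19 in Tet2-deficient arrays. Its groups did not overlap but touched, since the lowest Tet2-deficient array was 0.0056 above the highest wild-type one (change 0.27 ± 0.13, adjusted p = 0.363). Atf6 had the widest wild-type spread of the 32 genes, with 6.76, 6.12 and 6.49 against 7.15, 6.61 and 6.84. Its groups overlapped, and the change of 0.41 ± 0.19 had a 95% interval from -0.02 to 0.84 (adjusted p = 0.341).

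The transcription factors did not share a direction. Xbp1 read 8.12, 8.13 and 7.97 in wild-type arrays and 8.58, 8.45 and 8.27 in Tet2-deficient arrays, with no overlap (0.36 ± 0.13, adjusted p = 0.209). Spliced and unspliced Xbp1 mRNA were not told apart here. Atf4, which is regulated largely through translation, read 8.13, 7.998 and 8.10 against 7.98, 8.08 and 8.10. Its levels overlapped throughout, and the 95% interval of the change ran from -0.28 to 0.23. Ddit3, the gene of the pro-apoptotic factor CHOP, read 5.80, 5.65 and 5.97 against 5.72, 5.53 and 5.59. It overlapped too, at a change of -0.19 ± 0.13 (adjusted p = 0.517).

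Targets of ATF4 and CHOP went separate ways. Asns, asparagine synthetase, read 4.91, 5.15 and 4.79 in wild-type arrays and 5.503, 5.56 and 5.15 in Tet2-deficient arrays. Only the lowest Tet2-deficient array fell short of separating the groups (0.46 ± 0.15, adjusted p = 0.188). Ppp1r15a, the GADD34 subunit that brings a phosphatase to eIF2 and so ends the translation block, read 6.52, 6.69 and 6.78 against 6.43, 6.20 and 6.20. All 3 Tet2-deficient arrays lay below the wild-type ones, at a change of -0.39 ± 0.13 (adjusted p = 0.182). Trib3, a pseudokinase induced by CHOP, differed little between any arrays (4.03 to 4.05 in wild-type, 4.07 to 4.12 in Tet2-deficient). Its change of 0.06 ± 0.11 is small beside its moderated error, although the groups did not overlap. That error is larger than its own standard deviations, 0.0095 in wild-type and 0.024 in Tet2-deficient arrays. Over the 5 genes of the PERK-ATF4 branch the median change was -0.02, with 2 genes above 0 and 3 below.

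The IRE1-XBP1 branch had no common direction. Of its 9 genes, 5 had groups that did not overlap on the higher side: Xbp1, the co-chaperones Dnajb9 and Dnajc3, and the degradation genes Edem1 and Syvn1. The share on that side was 9.74% of all features and 16.6% of those above the median level. Dnajb9 (ERdj4, a partner of BiP that holds IRE1 in check) read 5.86, 5.79 and 5.45 in wild-type and 6.33, 6.36 and 6.07 in Tet2-deficient arrays (0.55 ± 0.15, adjusted p = 0.113). Edem1, which helps to route misfolded glycoproteins to degradation, read 8.02, 7.68 and 7.73 against 8.38, 8.16 and 8.21 (0.44 ± 0.13, adjusted p = 0.154). Dnajc3 (p58IPK) had 6.82 to 6.93 against 7.13 to 7.27, and the ubiquitin ligase Syvn1 (HRD1) had 5.49 to 5.63 against 5.76 to 5.84. For the other 4 genes no such separation upward was seen. The retrotranslocation proteins Derl1 and Derl2 (changes -0.03 and -0.08) and the translocon-associated Ssr1 (-0.02) had overlapping groups.

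Sec61b, a subunit of the channel through which new proteins enter the ER, read 6.27, 5.93 and 6.02 in wild-type arrays and 5.56, 5.82 and 5.61 in Tet2-deficient arrays. Each Tet2-deficient array lay below each wild-type one, at the lowest change of the 32 genes (-0.41 ± 0.14, 0.750-fold, adjusted p = 0.180). The median of the branch was 0.26. It depended on membership: without Xbp1, Dnajc3 and Edem1, which are known to answer to more than 1 arm, the 6 remaining genes had a median of -0.03.

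Of the 3 arms, the ATF6 branch was the one with every change above 0, 11 of 11, with a median of 0.32 and 7 genes whose groups did not overlap. Over all features 42.1% had a change above 0 and 9.74% lay higher without overlap. Above the median level the shares were 49.1% and 16.6%. Manf, a secreted ER stress-responsive factor that binds BiP, had the highest change of the 32. It read 6.39, 6.32 and 6.39 in wild-type arrays and 6.90, 7.30 and 6.82 in Tet2-deficient arrays, with the groups 0.43 apart (0.64 ± 0.14, 1.56-fold, adjusted p = 0.0735). Herpud1, a membrane protein of the degradation machinery, read 5.503, 5.29 and 5.34 against 6.13, 5.96 and 5.64 (0.53 ± 0.15, adjusted p = 0.122). Calr, the lectin chaperone calreticulin, read 9.44, 9.40 and 9.49 against 9.89, 9.95 and 9.74 (0.42 ± 0.12, adjusted p = 0.123). In all 3 genes every wild-type array lay below the whole Tet2-deficient group, although for Herpud1 the groups were only 0.14 apart.

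Hspa5 encodes BiP, the main HSP70 chaperone of the ER and the classical readout of the response. Its log2 level was 9.41, 9.49 and 9.48 in wild-type arrays and 9.85, 9.86 and 9.54 in Tet2-deficient arrays. The third Tet2-deficient array was only 0.05 above the highest wild-type array, and the change was 0.29 ± 0.13 (1.22-fold, adjusted p = 0.308). Hsp90b1, the HSP90 of the ER (GRP94), read 9.58, 9.56 and 9.57 against 9.90, 10.0 and 9.88. Here all Tet2-deficient arrays stood at least 0.30 above the wild-type arrays (0.37 ± 0.11, adjusted p = 0.152). Hyou1, which exchanges nucleotide on BiP, read 7.09, 7.13 and 7.07 against 7.26, 7.66 and 7.32 (0.32 ± 0.14, adjusted p = 0.295), also without overlap.

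The remaining ATF6-branch genes were less separated. Sel1l, the partner of the ligase Syvn1, had 6.73 to 6.94 in wild-type and 6.996 to 7.26 in Tet2-deficient arrays, without overlap. The disulphide isomerase Pdia4 read 6.33, 6.37 and 6.59 against 7.07, 6.92 and 6.46, so that the third Tet2-deficient array lay inside the wild-type range. Sdf2l1 also had its lowest level of the group in that array, with 6.28 and 6.37 in the first 2 Tet2-deficient arrays and 5.86 in the third, below all wild-type arrays (6.03 to 6.12). Creld2 (change 0.20) and the BiP co-chaperone Dnajb11 (0.08) overlapped. Among folding genes not assigned to 1 branch, the isomerase Pdia6 read 8.16, 8.34 and 8.06 against 8.71, 8.78 and 8.47 (0.46 ± 0.13, adjusted p = 0.136). Canx, the membrane-bound lectin chaperone calnexin, had 9.76 to 9.83 against 10.0 to 10.2 (0.30 ± 0.11, adjusted p = 0.228). Pdia3 and P4hb, the best known members of the isomerase family, overlapped, with changes of 0.03 and 0.11.

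**Figure D2:**
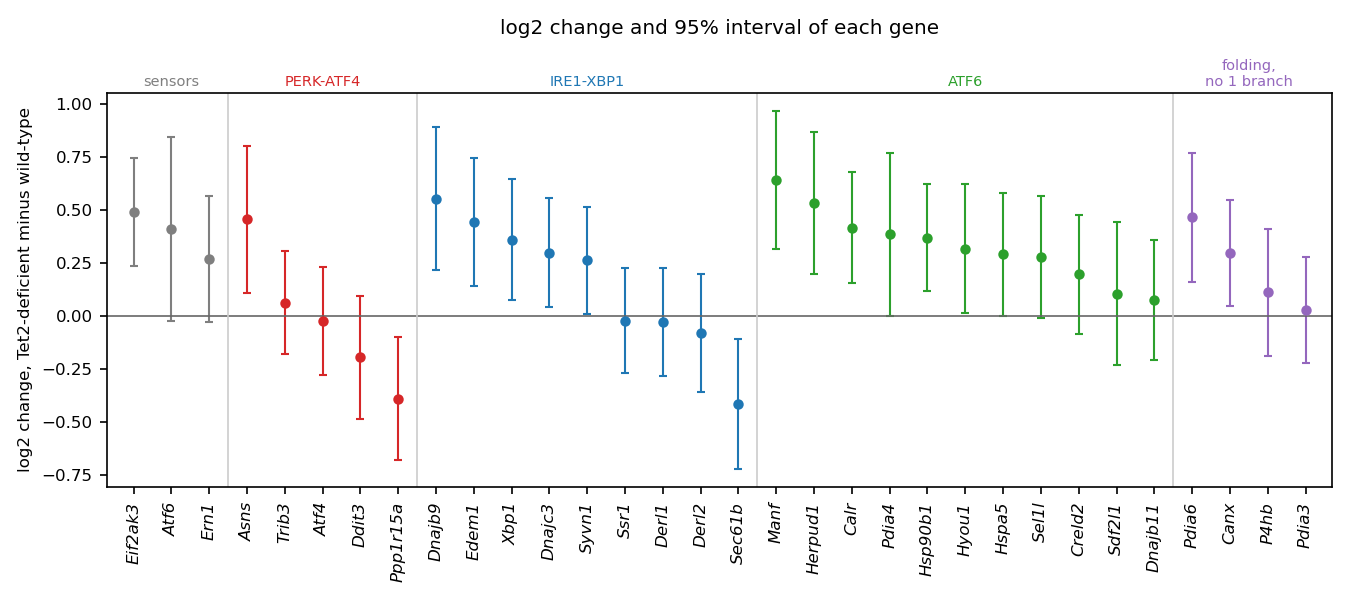
log2 change (Tet2-deficient minus wild-type, vertical axis) of each gene with its 95% interval from limma, grouped and coloured by branch. All 11 ATF6-branch points lie above 0, from 0.08 to 0.64, whereas the PERK-ATF4 and IRE1-XBP1 points lie on both sides.

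By role, 10 of 10 chaperones and co-chaperones had a change above 0 (median 0.31) and 8 of them had groups that did not overlap. The 5 isomerases and redox partners had a median of 0.20 with 1 such gene, Pdia6. Of the 6 degradation genes 4 did not overlap, all higher, and the median was 0.27. On the higher side 9.74% of all features did not overlap, and 16.6% of those above the median level. A change above 0 was found in 42.1% and 49.1%. The median change of the ATF6 branch exceeded that of the PERK-ATF4 branch by 0.34 and that of the IRE1-XBP1 branch by 0.05. The latter difference was not stable: it was -0.0025 with array weights and, when an array was left out, ran from 0.011 without Tet2-deficient replicate 1 to 0.145 without Tet2-deficient replicate 3. It was 0.37 when genes of more than 1 arm were left out and 0.18 with means in place of medians. The IRE1-XBP1 branch exceeded the PERK-ATF4 branch by 0.29, but lay 0.04 below it when genes of more than 1 arm were left out. These differences are descriptions of the lists, with no test.

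**Figure D3:**
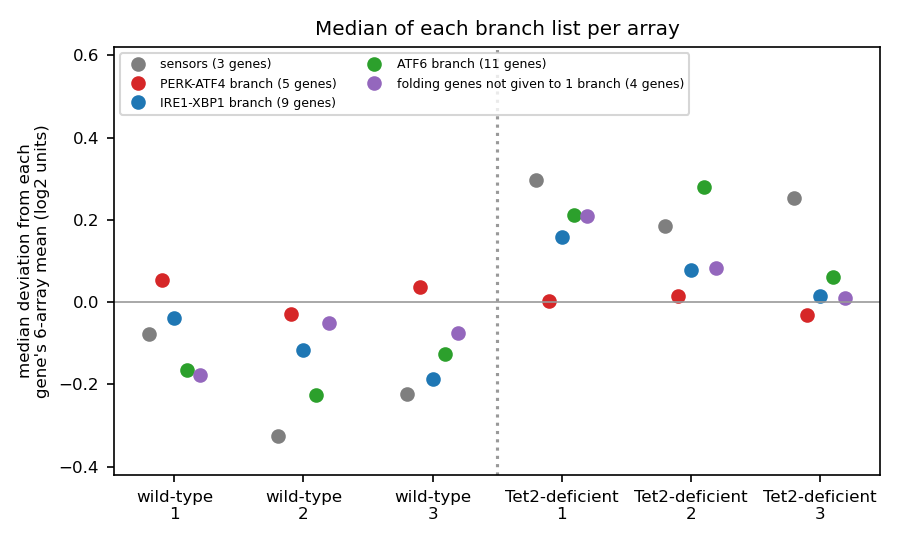
Median, over the genes of each branch list, of the deviation from each gene's mean over the 6 arrays (vertical axis, log2 units), for each array on the horizontal axis. The ATF6 list is at -0.23 to -0.13 in the wild-type and at 0.06 to 0.28 in the Tet2-deficient arrays, and the PERK-ATF4 list stays between -0.03 and 0.05 in all 6.

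The 3 Tet2-deficient arrays were not alike in the ATF6 branch. The list's median deviation was 0.21, 0.28 and 0.06 in replicates 1, 2 and 3, against -0.16, -0.23 and -0.13 in wild-type replicates 1, 2 and 3. Replicate 3 was the lowest of its group in 7 of 11 ATF6-branch genes and replicate 2 the highest in 7. Without Tet2-deficient replicate 3, the change of Pdia4 was 0.56, that of Hspa5 0.39 and that of Sdf2l1 0.26, against 0.39, 0.29 and 0.11 with all arrays. The sensors did not follow this order, as their median deviation was 0.30, 0.19 and 0.25 in the same 3 arrays.

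The spread within groups differed as well. The standard deviation was larger among the Tet2-deficient than among the wild-type arrays in 10 of 11 ATF6-branch genes, against 51.2% of all features and 57.1% of those above the median level. Median standard deviations of the branch were 0.05 in wild-type and 0.18 in Tet2-deficient arrays. For Manf they were 0.04 and 0.25, for Hyou1 0.03 and 0.21, and for Hspa5 0.04 and 0.18. Dnajb11 alone went the other way (0.16 and 0.05). The Tet2-deficient spread was larger in 23 of all 32 genes (71.9%), in 4 of 4 folding genes not assigned to 1 branch, in 5 of 9 IRE1-XBP1 genes, in 3 of 5 PERK-ATF4 genes and in 1 of 3 sensors. With 3 arrays per group a standard deviation is itself imprecise, and the difference in spread was not tested. The genes of a list were read in the same 3 arrays per group, so 1 array can move many of them together. These counts of genes are therefore not counts of independent observations.

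**Figure D4:**
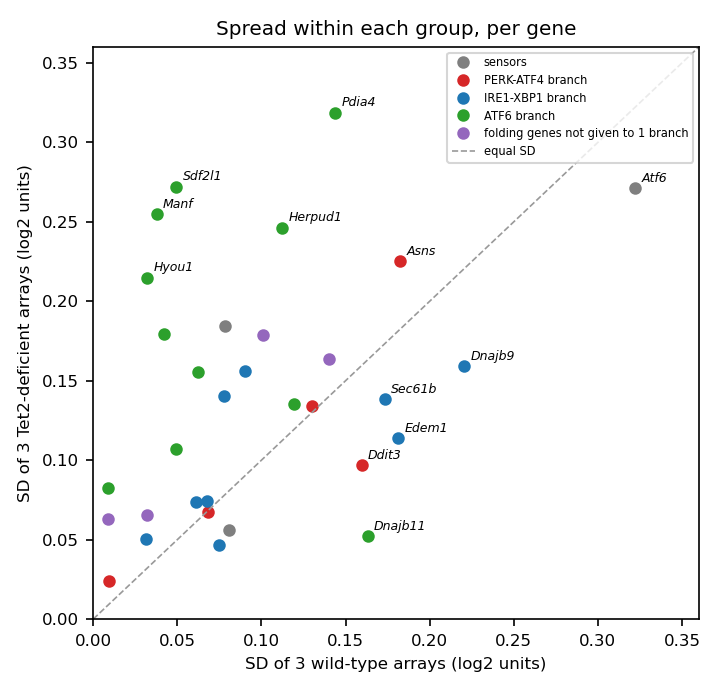
Standard deviation of each gene among the 3 wild-type arrays (horizontal axis) and among the 3 Tet2-deficient arrays (vertical axis), both in log2 units and coloured by branch; the dashed line marks equal values. Of 11 ATF6-branch genes 10 lie above the line, with Manf at 0.04 and 0.25, and Dnajb11 lies below it.

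The promoters of the genes were searched for known elements of the response. In 28 of the 32 genes a promoter of the RefSeq table (mouse GRCm38.p6) could be matched, and the 250 bases before the start were searched on both strands for the ER stress response element, which is CCAAT, 9 bases of any kind and then CCACG, the sequence that ATF6 and NF-Y are known to bind. It was present in 8 of the 28 genes, against 0.130% of the 27025 genes of the table. The element was first described in ER chaperone genes, and the genes here were chosen as known members of the response, so this share is a description and no independent finding. By branch it was found in 4 of 9 ATF6-branch genes, 2 of 8 IRE1-XBP1 genes, 2 of 4 folding genes not assigned to 1 branch (Canx and Pdia6), 0 of 5 PERK-ATF4 genes and 0 of 2 sensors. The elements are shown to let the genes that hold one be compared. Dnajb9, Edem1 and Herpud1, whose levels also lay higher, hold none of this form. They are written in the CCAAT to CCACG direction, with the fixed letters in capitals; Hsp90b1 holds 2 of them.
Hspa5: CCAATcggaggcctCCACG
Hsp90b1: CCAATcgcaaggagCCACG
Hsp90b1: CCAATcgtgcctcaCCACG
Calr: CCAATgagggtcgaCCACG
Creld2: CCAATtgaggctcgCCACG
Dnajc3: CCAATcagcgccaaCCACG
Syvn1: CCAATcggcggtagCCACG
Pdia6: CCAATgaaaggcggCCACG
Canx: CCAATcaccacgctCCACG

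The element of Hspa5 lay 65 to 47 bases before the start and that of Syvn1 nearest, at 44 to 26 bases. In Calr, Creld2 and 1 of the Hsp90b1 copies it ran opposite to the gene. All 8 genes with the element had changes above 0 (0.20 to 0.46, median 0.30), and in 7 of them, all but Creld2, the groups did not overlap. The 20 matched genes without it ran from -0.41 to 0.55 with a median of 0.11. Of these 20, 14 had a change above 0, and groups did not overlap in 8 on the higher side and 2 on the lower. Over all features 9.74% lay higher without overlap and 12.2% lower, and above the median level 16.6% and 14.5%. Manf and Hyou1 of the ATF6 branch had no matched promoter and are in neither set. Of 27 other genes of the table that hold the element, 21 were measured. Among them 6 had a change above 0, against 42.1% of all features, and the median was -0.04, as over all features. In limma 0 passed an adjusted p of 0.05, where 0.952% of all features did. Whether these genes are expressed in macrophages was not examined, so their changes do not decide whether the element goes with a higher level. Of these 21, Alg12, a mannosyltransferase of ER glycosylation, had the highest change (0.58, adjusted p = 0.143) and Ero1b, an ER oxidase, the next (0.46, adjusted p = 0.253); both were picked after their values were seen. A match is a description of letters and not of binding.

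For 3 genes the whole stretch is given to show the elements in place, with matched letters in capitals and all on the gene's strand. Hspa5 carries the element above. Herpud1 carries the variant of ATTGG, 1 base of any kind and CCACG, found in 0.0370% of genes of the table and in no other of the 28, and also TGATGNAA, the core of the element through which ATF4 and C/EBP factors act, on the opposite strand. Asns carries TGATGNAA, found in 3.91% of genes of the table and in Asns and Herpud1 alone among the 28. A further motif, TGACGTGG, known from XBP1 and ATF6 sites, was in none of the 28 stretches and in 0.603% of genes of the table.
Hspa5, chr2:34771840-34772089, plus strand: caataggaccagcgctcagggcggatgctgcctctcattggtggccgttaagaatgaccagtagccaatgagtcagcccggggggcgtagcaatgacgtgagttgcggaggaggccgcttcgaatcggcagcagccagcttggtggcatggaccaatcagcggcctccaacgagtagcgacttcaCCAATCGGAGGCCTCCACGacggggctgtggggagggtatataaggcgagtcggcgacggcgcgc
Herpud1, chr8:94386179-94386428, plus strand: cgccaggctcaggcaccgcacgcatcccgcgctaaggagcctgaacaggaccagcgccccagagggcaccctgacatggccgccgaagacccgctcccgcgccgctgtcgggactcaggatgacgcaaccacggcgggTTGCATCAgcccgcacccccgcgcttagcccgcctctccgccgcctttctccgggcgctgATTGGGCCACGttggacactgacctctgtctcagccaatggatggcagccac
Asns, chr6:7693210-7693459, minus strand: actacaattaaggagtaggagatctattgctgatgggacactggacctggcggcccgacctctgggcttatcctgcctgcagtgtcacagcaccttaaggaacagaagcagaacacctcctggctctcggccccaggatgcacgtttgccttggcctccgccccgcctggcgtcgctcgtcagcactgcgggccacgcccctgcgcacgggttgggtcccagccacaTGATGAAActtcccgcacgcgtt

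Other genes of the pathway were read from lists that cover the rest of each arm. Over all features 0.647% rose and 0.305% fell at an adjusted p of 0.05 in limma. Of 25 other ATF4 targets measured, 1 rose and 0 fell, and the median change was -0.06. The riser was Slc7a11, the cystine transporter subunit, at 8.42, 8.14 and 7.64 in wild-type and 9.83, 9.84 and 9.83 in Tet2-deficient arrays (1.77 ± 0.18, limma adjusted p = 0.00629). Its call ended when replicate 1 or 3 of the Tet2-deficient arrays was left out (adjusted p over the 6 fits that leave out an array 0.00344 to 0.0529). Slc7a11 is also known as a target of NRF2. Psat1, a serine synthesis enzyme, had 0.75 ± 0.17 (adjusted p = 0.0732), and Gpt2, an alanine aminotransferase, had -0.75 ± 0.17 (adjusted p = 0.0715). Among 12 aminoacyl-tRNA synthetases under ATF4, Iars, which charges isoleucine tRNA, rose (0.71 ± 0.12, adjusted p = 0.0376) and 11 did not pass. Iars lost its call whichever array was left out (0.0640 to 0.133). Eprs (0.49) and Wars (0.32) had the next smallest p. The 10 measured eIF2 kinase, phosphatase and exchange factor genes gave 0 calls in limma. At an unadjusted p of 0.05 they gave 1 gene, Eif2b4 (-0.33), where 8.37% of all features were lower. Nck1 and Eif2b3, next by p, had 0.20 and 0.21.

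Of 31 other secretory pathway genes under XBP1, 1 rose, 1 fell and 29 did not pass, while 25 had a change above 0 (median 0.19). Over all features 0.647% rose, 0.305% fell and 42.1% had a change above 0. Sec63, a translocon partner that brings BiP to the channel, rose by 0.65 ± 0.12 (adjusted p = 0.0381). Sec11c, a catalytic subunit of signal peptidase, fell by 0.68 on the log2 scale (± 0.13, adjusted p = 0.0428). Both lost their calls whichever array was left out (0.0549 to 0.159 and 0.0596 to 0.175). With the replicate number as a block Sec63 was at 0.0624 and Sec11c at 0.0697. Stt3a, the catalytic subunit of the oligosaccharyltransferase, stood at 0.58 ± 0.12 (adjusted p = 0.0576). In the list of 19 other degradation genes 0 passed in limma and 5, all higher, had an unadjusted p under 0.05, led by Nploc4 (0.59), Edem3 (0.44) and Ube2j1 (0.42). In that of 21 other ER folding genes 0 passed and 6, all higher, had an unadjusted p under 0.05, led by the glycoprotein folding sensor Uggt1 (0.51), Dnajc1 (0.48) and Txndc11 (0.48). At that threshold 7.63% of all features were higher, and 13.4% of those above the median level.

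Among 14 regulators of ATF6 and IRE1 and related factors, 1 rose, 1 fell and 12 did not pass, where 0.647% of all features rose and 0.305% fell. Wfs1, wolframin, an ER membrane protein known to promote the degradation of ATF6, read 8.70, 8.61 and 8.80 in wild-type and 7.60, 7.75 and 7.98 in Tet2-deficient arrays. It fell by 0.93 on the log2 scale (± 0.13, adjusted p = 0.0210). Map3k5 (ASK1), a kinase that acts downstream of IRE1 and TRAF2, rose by 1.00 ± 0.17 (adjusted p = 0.0361). Each lost its call in 5 of the 6 fits that leave out an array, all but that without wild-type replicate 1 (0.0488 to 0.0937 for Wfs1 and 0.0287 to 0.133 for Map3k5). Creb3l3, next by p, had -0.25. Of 7 transcripts known as substrates of decay by IRE1, 2 rose and 0 fell: Pmp22, a myelin and epithelial membrane protein (1.34 ± 0.17, adjusted p = 0.0133), and the growth factor receptor Pdgfrb (0.91 ± 0.16, adjusted p = 0.0361). Hgsnat stood at 0.54 and Bloc1s1, the best known such substrate, at -0.34 ± 0.12 (adjusted p = 0.218). Every Tet2-deficient array lay below every wild-type array for Bloc1s1, against 12.2% of all features. In all, 6 of the 7 had a change above 0 (median 0.54), against 42.1% of all features. Of these Sparc (0.89) and Col6a1 (0.24) had overlapping groups and were highest in Tet2-deficient replicate 2, at 7.09 and 5.12. Scara3 (0.06) overlapped too and lay below the median feature, at 3.02 to 3.22. Pmp22 lost its call in 3 of the 6 fits, those lacking wild-type replicate 3, Tet2-deficient replicate 1 and Tet2-deficient replicate 3 (0.0154 to 0.0603), and Pdgfrb in 5, all but that without Tet2-deficient replicate 2 (0.04997 to 0.146).

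**Figure D5:**
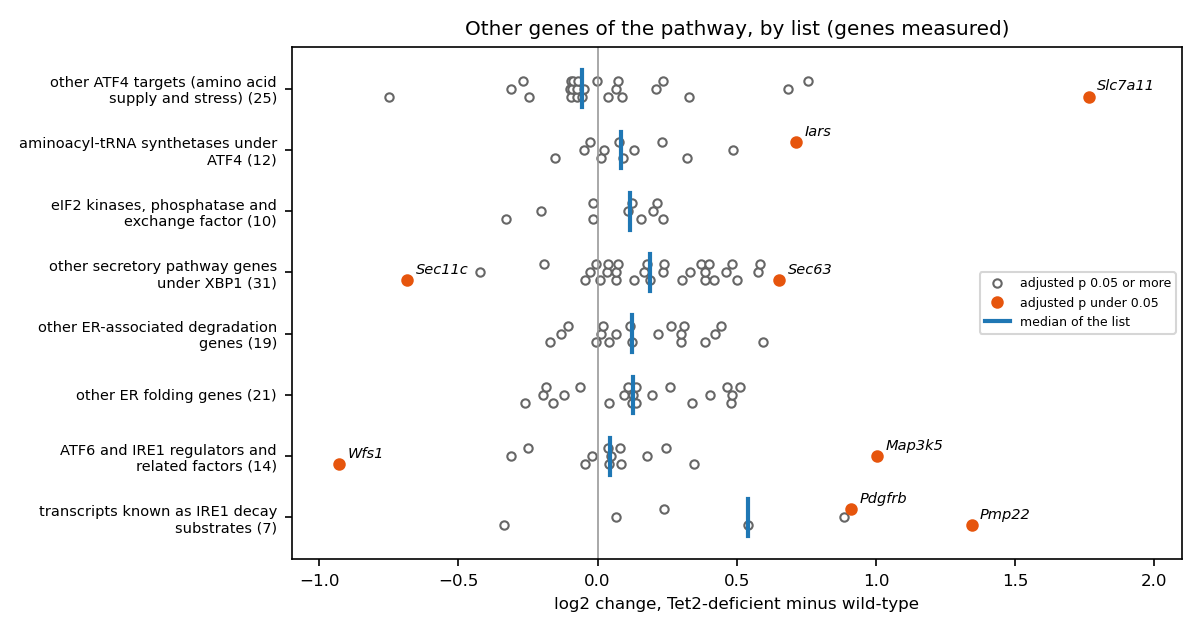
log2 change (Tet2-deficient minus wild-type, horizontal axis) of each measured gene of 8 further lists (vertical axis, number of genes in parentheses). Filled points passed a limma adjusted p of 0.05 and are named, and bars mark list medians, which run from -0.06 for other ATF4 targets to 0.54 for IRE1 decay substrates.

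Markers of other cell types were read in the same arrays. Of 9 markers of resident peritoneal macrophages measured, 3 rose (Prg4 by 2.46 ± 0.31, Timd4 by 1.19 ± 0.17 and Serpinb2 by 1.59 ± 0.20) and 0 fell. Over all features 0.647% rose and 0.305% fell. Each of the 3 lost its call when replicate 3 of either group was left out, and Timd4 kept its call only without wild-type replicate 1. Besides the 3, Alox15 (1.07), Icam2 (0.99) and Cxcl13 (0.93) had groups that did not overlap. All 9 markers had a change above 0 (median 0.99) and 6 lay higher without overlap, against 42.1% and 9.74% of all features. Their mean log2 level was 5.23 to 5.55 in wild-type and 6.03 to 6.63 in Tet2-deficient arrays, and their summed linear level 568 to 801 and 1392 to 2395. Gata6, which defines these cells, was at 3.51 to 3.79 and 3.59 to 4.42, with overlap. This list moved with the genotype alongside the ATF6-branch genes, and its part in their levels was not tested. For B cells and plasma cells, which have a large ER, 0 of 9 markers passed. Their mean log2 level was 3.86 to 4.06 in wild-type and 3.67 to 4.38 in Tet2-deficient arrays, and their summed linear level 504 to 561 and 475 to 760. Levels differed widely within this list. Jchain and Tnfrsf17 lay below 2.30 in every array, and Mzb1 was at 3.74 to 4.05. Sdc1 was at 8.51 to 9.07 and Ighm at 4.27 to 7.04, both highest in Tet2-deficient replicate 1. Collagens and other markers of mesothelium and fibroblasts gave 0 of 10 calls, with a summed level of 169 to 243 in wild-type and 191 to 519 in Tet2-deficient arrays, highest in Tet2-deficient replicate 2, the array that was also highest for most of the ATF6 branch. Their part was not tested. Monocytes gave 0 of 5 calls (mean log2 level 5.67 to 6.06 and 5.84 to 6.45), and neutrophils 0 of 9, T and NK cells 0 of 7, mast cells and eosinophils 0 of 9 and dendritic cells 0 of 6, all with mean log2 levels of 2.43 to 3.59.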

How the data were processed

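The authors deposited log2 expression values, 1 column per array, from RMA in affy 1.36.1 (which removes background, equalises array distributions and combines the probes of a feature), per the submitters' processing notes. The sources used here do not give probe positions or any filter. RMA draws arrays to 1 distribution, so a shift common to all genes would be hidden, and it compresses differences at low levels. No pair of arrays was identical. The labels call the samples biological replicates. The p-values rest on the spread between them, which limma moderates with the variance of all features (prior degrees of freedom 5.31). Of 25206 features, 23185 carried 1 symbol, 0 several and 2021 none. Symbols were updated through RefSeq gene IDs; 11 aminoacyl-tRNA synthetases were matched by older symbols. Listed genes that matched no feature were not analysed here.

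Values were used as deposited. Tests were two-sided limma tests (lmFit, eBayes; limma 3.58.1, R 4.3.3), and p-values were adjusted by Benjamini-Hochberg across the whole table. A permutation test of 3 arrays against 3 cannot go below 0.1 and was not used. The fit was tested on simulated data. The genes and lists were chosen with earlier results of these data known. Named were all 32 genes, Tet2 and, in each further list, genes past the threshold and the 3 with the smallest p. Bloc1s1, Sparc, Col6a1, Alg12, Ero1b and marker genes were named after their values were seen. Summed marker levels are sums of 2 to the power of the log2 values. Alternatives were median-centred arrays, cyclic loess, features above the median level, features with 1 symbol, a replicate block, a trended and robust prior, array weights, each array left out, other thresholds, other branch membership and list means. The number of arrays limits precision.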

Additional observations from a re-analysis of the deposited data

How the results depend on the processing

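Of 32 genes, 0 passed in any fit that left out an array, with the replicate block, with array weights or on features with 1 symbol. With centred arrays 1 passed (Manf), with features above the median level 2 (Manf and Eif2ak3, beside 4.18% of features higher and 2.53% lower) and with a trended and robust prior 3 (Manf, Calr and Hsp90b1, beside 1.97% and 1.26%), all higher. For Manf the adjusted p ran from 0.0315 to 0.210 over 13 alternatives. Genes without overlap numbered 15 to 21 on the higher side over all alternatives and 2 to 4 on the lower, with 4 lower without Tet2-deficient replicate 1 and 3 with cyclic loess or without wild-type replicate 2. Leaving out an array cannot lower these counts, since fewer arrays then have to lie apart, so those fits do not show that they are stable. As deposited, 9.74% of all features lay higher without overlap and 12.2% lower. Shares under the alternatives are not given here.

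Over all features 163 were higher and 77 lower as deposited. The counts were 527 and 319 above the median level, 497 and 317 with the trended prior, 318 and 180 with array weights, 118 lower with cyclic loess, 7 to 124 higher and 4 to 46 lower when an array was left out, 1500 and 1526 at an adjusted p of 0.25, and 1924 and 2111 at an unadjusted p of 0.05.

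Over all features 5.95% were higher and 6.05% lower at an adjusted p of 0.25, and 7.63% and 8.37% at an unadjusted p of 0.05 (13.4% and 10.6% of features above the median level). At an adjusted p of 0.25 the higher calls were 12 of the 32 genes, 4 other ATF4 targets, 3 synthetases, 10 secretory, 5 degradation and 5 folding genes, and the lower calls 2 of the 32, 1 ATF4 target, 2 secretory genes and 1 IRE1 substrate. At an unadjusted p of 0.05 they were 16, 4, 3, 11, 5 and 6 higher, and 2, 1, 2 and 1 lower with 1 eIF2 gene. Above the median level they were 2 ATF4 targets, 2 synthetases, 4 secretory, 1 degradation and 2 folding genes higher and 1 ATF4 target lower; with the trended prior 2 ATF4 targets, 4 secretory, 1 degradation and 2 folding genes higher and 1 ATF4 target lower; with array weights 2 secretory and 1 degradation gene higher. With the replicate block 0 synthetases and 0 secretory genes were called, and with centred arrays 0 secretory genes were lower. Without 1 array, synthetases and secretory genes gave 0 calls, other ATF4 targets and regulators 0 to 1 and IRE1 substrates 0 to 2.

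Centring moved the median of all 32 genes to 0.35, of chaperones to 0.37, of ATF4 and CHOP targets to 0.13 and of the PERK-ATF4 list and transcription factors to 0.042, since it raised every change alike; Atf4 turned to 0.042, Derl1 to 0.038 and Ssr1 to 0.043. With cyclic loess these medians were 0.23 for all genes, 0.11 for ATF4 and CHOP targets and -0.081 for the PERK-ATF4 list and transcription factors, and Pdia3 turned to -0.012; the cause was not tested. When an array was left out, Atf4 ran from -0.062 to 0.015, as did the PERK-ATF4 median, Derl1 from -0.064 to 0.010, Ssr1 from -0.037 to 0.0065, Dnajb11 from -0.018 to 0.13, Pdia3 from -0.0079 to 0.048, the sensor median from 0.28 to 0.53, the chaperone median from 0.30 to 0.38, and the difference of ATF6 from PERK-ATF4 medians from 0.25 to 0.44. With genes of more than 1 arm left out, the PERK-ATF4 median was 0.019, the IRE1-XBP1 median -0.025, their difference -0.044, and ATF6 exceeded IRE1-XBP1 by 0.37. With means in place of medians IRE1-XBP1 exceeded PERK-ATF4 by 0.17 and ATF6 exceeded IRE1-XBP1 by 0.18. Both follow from the lists' make-up.

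Deviations of arrays with the same replicate number had correlations of 0.08, 0.19 and 0.02 for numbers 1, 2 and 3. Arrays with different numbers were not compared, so these values do not decide whether the numbers mark pairs. The labels state no pairing, and the numbers were taken as a block only in the alternative fit.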
